A study of Mus musculus with 8 samples.

Results

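The 9 genes described here are Cx3cr1, P2ry12, Tmem119, Csf1r, C1qa, Trem2, Tyrobp, Cst7 and Lpl, which were chosen by name as genes of resting microglia or of microglia that react to disease or cell loss, out of 46517 genes in the bulk RNAseq table and 24051 in the snRNAseq table. The study compared hippocampi of Gfap-Cre;Wlsfl/- mice (mutant) with those of Gfap-Cre;Wlsfl/+ mice (control), to ask what the loss of dentate granule cells in mutants lacking Wls, the carrier that Wnt ligands need to leave the cell, does to the tissue. Each assay had 2 mutant and 2 control libraries, each from both hippocampi of 1 mouse labelled male and 12 weeks old. Both genotypes carried the same Cre transgene and 1 floxed Wls allele, and differed in whether the other allele was null or wild type. The Gfap promoter of this transgene drives Cre in neural progenitors of the developing cortex, a lineage that does not give rise to microglia.

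Microglia are the resident macrophages of the brain and depend on signalling through the receptor Csf1r. In the resting state they express Cx3cr1, which reads the neuronal chemokine fractalkine, P2ry12, which senses released nucleotides, and the surface protein Tmem119. In neurodegeneration and demyelination a reaction state is known in which Trem2 and its signalling adaptor Tyrobp act upstream of genes such as Cst7 and Lpl, while P2ry12, Tmem119 and Cx3cr1 fall.

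Promoter sequence from RefSeq (build GRCm38.p6) was matched for 4 of the 9 genes, and all 4 are shown. Of these, 3 were highest in microglia and Cst7 was not. Each line gives the 250 bases before the annotated start, read 5′ to 3′ on the strand of the gene, and capitals mark GAGGAA, the core bound by the myeloid factor PU.1, or CACGTG, an E-box, on either strand. The 2 motifs share no overlap in these windows.
Cx3cr1 (chr9:120068297-120068546, minus strand): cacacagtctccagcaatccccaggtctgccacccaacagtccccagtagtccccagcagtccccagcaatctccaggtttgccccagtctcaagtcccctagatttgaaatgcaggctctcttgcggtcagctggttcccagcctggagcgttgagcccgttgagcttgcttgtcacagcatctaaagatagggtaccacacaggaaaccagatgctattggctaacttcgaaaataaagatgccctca
P2ry12 (chr3:59262986-59263235, minus strand): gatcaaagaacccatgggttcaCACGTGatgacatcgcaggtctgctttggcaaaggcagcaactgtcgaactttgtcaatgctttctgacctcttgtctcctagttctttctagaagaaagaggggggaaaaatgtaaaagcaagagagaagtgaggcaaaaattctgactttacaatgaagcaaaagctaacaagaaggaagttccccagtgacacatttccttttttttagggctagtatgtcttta
Trem2 (chr17:48346151-48346400, plus strand): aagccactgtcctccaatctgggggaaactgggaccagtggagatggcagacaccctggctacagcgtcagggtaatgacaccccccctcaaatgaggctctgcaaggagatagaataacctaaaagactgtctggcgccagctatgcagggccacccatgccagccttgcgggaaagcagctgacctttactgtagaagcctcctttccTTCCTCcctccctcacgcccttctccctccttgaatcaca
Cst7 (chr2:150570165-150570414, plus strand): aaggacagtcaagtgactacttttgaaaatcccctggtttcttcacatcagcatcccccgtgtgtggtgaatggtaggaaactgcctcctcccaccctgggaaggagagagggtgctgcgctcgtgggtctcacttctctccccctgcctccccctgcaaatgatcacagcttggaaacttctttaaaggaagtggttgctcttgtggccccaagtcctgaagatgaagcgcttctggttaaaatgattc

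The Trem2 window held the PU.1 core once, on the reverse strand and starting 40 bases before the start, and the P2ry12 window held the E-box once, 228 bases before the start. Neither motif was present in the Cx3cr1 and Cst7 windows. Of 32851 RefSeq promoter windows of this length, 23.3% held the PU.1 core and 6.02% held the E-box, so a match in 1 of 4 windows describes these letters only.

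The bulk libraries held between 56002381 and 79576196 expected counts, and the snRNAseq libraries between 26307081 and 76486132 UMIs (unique molecular identifiers, each standing for 1 captured RNA molecule) in 5304 to 10460 nuclei. The targeted gene Wls had 3.67 and 6.86 CPM (counts scaled to equal library totals) in the mutant bulk libraries and 13.2 and 13.03 in the controls. Replicate 2 of both genotypes in bulk went against the male label, with Xist at 230.1 CPM in the mutant and 518 in the control and the Y-linked gene Ddx3y at 0.352 and 0.343, whereas replicate 1 of each had Xist at 1.44 and 1.05 CPM. Since 1 such library stood in each genotype, values are given for every library. Markers of choroid plexus, the tissue that secretes cerebrospinal fluid, summed to 848 and 5949 CPM in the mutant bulk libraries and to 258 and 201 in the controls, and the 8 to 21 cell barcodes that each pair of snRNAseq libraries shared were few against their nuclei.

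Across cell types, 7 of the 9 genes were highest in the nuclei that the deposited annotation calls microglia, and Lpl and Cst7 were not. There were 737 such nuclei of 29425, and 18 of the 21 annotated types had at least 10 nuclei in every library. The label was checked against 7 microglial genes that are not among the 9 (Siglech, P2ry13, Gpr34, Selplg, Inpp5d, Apbb1ip and Mertk). All 7 were highest in microglia among these 18 types, and between 96.2% and 100% of microglia nuclei in each library had UMIs of at least 2 of them. Of 8 border macrophage markers, Cd163, Lyve1, Pf4 and Cbr2 were at 0 in the microglia of all 4 libraries. Stab1 averaged 173 CPM and was highest in microglia, and Mrc1 averaged 4.32 CPM there. The 8 summed to 179 CPM in microglia, against 92.4 CPM in the type labelled inhibitory neurons 14.

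The labels of 2 of the 14 types annotated as neurons went against their markers. In the 519 nuclei labelled inhibitory neurons 14 (spelled inhibtory in the annotation) the meningeal fibroblast markers summed to 2288 CPM and the endothelial markers to 2273 CPM, and in the 135 nuclei labelled excitatory neurons 19 to 843 and 158 CPM. In the other 12 these sums were at most 119 and 30.6 CPM. Neuron markers summed to 2262 and 1855 CPM in the 2 types, against 7256 to 19426 CPM in the 12. They are called clusters 14 and 19 below.

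Csf1r, the receptor for the survival factors Csf1 and Il34, averaged 1201 CPM in microglia and 16.6 CPM in the next type, cluster 14, a ratio of 72.3. Cx3cr1 was the highest of the 9 in microglia at 1789 CPM, 37.9 times its mean in cluster 14. Trem2, the lipid-sensing receptor, averaged 272 CPM in microglia and 2.47 CPM in that same type, where it rested on 7 UMIs. Tyrobp, the adaptor that Trem2 needs to signal, averaged 94.5 CPM against 5.53, and C1qa, a chain of the complement starter C1q, 442 CPM against 16.1. Tmem119 averaged 397 CPM against 25.1. Each of these genes was higher in microglia than in the next type in all 4 libraries, which is given as a description because the nuclei were grouped on their expression. Apart from clusters 14 and 19, Csf1r was at most 6.60 CPM (oligodendrocyte precursors), Tmem119 4.33 CPM and C1qa 4.85 CPM (both astrocytes) in any type but microglia.

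**Figure D1:**
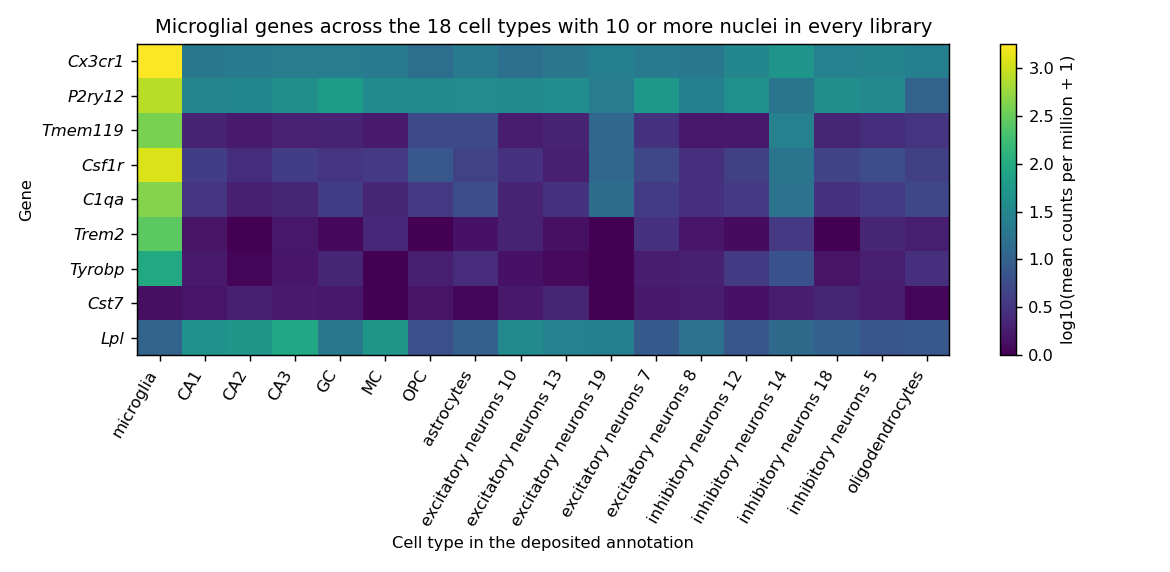
Mean level of the 9 genes over 4 libraries, as log10 of CPM plus 1 (colour), in the 18 cell types with at least 10 nuclei in every library. The first column, microglia, is the brightest for 7 genes, from Cx3cr1 at 1789 CPM to Tyrobp at 94.5 CPM, whereas Lpl is brightest in CA3 at 88.9 CPM and Cst7 is near 0 in every column.

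P2ry12 differed from the other microglial genes in its level elsewhere. It averaged 826 CPM in microglia and 57.8 CPM in dentate granule cells (GC), and it had UMIs in the 12 neuron types other than clusters 14 and 19 in every library, from 19.3 to 70.1 CPM. Cx3cr1 also had UMIs in all 12 in every library, with type means from 14.2 to 30.9 CPM, whereas Trem2 means reached at most 1.88 CPM there.

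P2ry12 stood in another proportion to Csf1r in neurons than in microglia. For each Csf1r UMI there were between 0.494 and 1.62 P2ry12 UMIs in the microglia of the 4 libraries, between 7.54 and 15.0 in CA1 pyramidal cells, 8.11 and 19.3 in CA3, 3.86 and 9.76 in inhibitory neurons 5 and between 23.6 and 34.3 in granule cells. C1qa UMIs per Csf1r UMI were between 0.264 and 0.504 in microglia, which overlapped with CA1 (0.480 to 0.875), CA3 (0.25 to 0.80) and inhibitory neurons 5 (0.244 to 1.06) but not with granule cells (0.857 to 2). Both ratios in granule cells rested on 1 and 7 Csf1r UMIs in the mutant libraries. Microglia were at most 3.99% of the nuclei of a library. They gave 2.50% to 19.3% of all P2ry12 UMIs, against 16.3% to 83.9% of Csf1r UMIs.

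P2ry12 (ENSMUSG00000036353, GRCm38 chromosome 3, 59216272 to 59262871, minus strand) lies wholly inside Med12l, which is read from the opposite strand and stood at 248 to 357 CPM in granule cells and 331 to 604 CPM in microglia. The Cx3cr1 gene model (ENSMUSG00000052336, chromosome 9, 119901616 to 120069879, minus strand) spans 168264 bases and overlaps 3 genes on the same strand and 6 on the other. The nuclear reads were aligned to an index that includes introns, and the part of such neighbouring transcripts in the neuronal UMIs of P2ry12 and Cx3cr1 was not tested. Tmem119, C1qa, Trem2, Tyrobp, Cst7 and Lpl overlap no other annotated gene.

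Likeness to the microglial pattern was measured over 77 sums of UMIs, each of 1 library and 1 cell type, which share their library and depth. Among 4083 genes at 50 CPM or more in microglia, the 5 most like the mean profile of Cx3cr1, P2ry12, Tmem119 and Csf1r were Siglech (r = 0.929), Nckap1l (0.911), Nlrp3 (0.911), Bin2 (0.909) and Rhoh (0.908). Trem2 had r = 0.875 with that profile, C1qa 0.795, Tyrobp 0.792, Cst7 0.0055 and Lpl -0.22.

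Lpl, which encodes lipoprotein lipase and is counted among the late genes of the reaction state, was in these nuclei a gene of pyramidal neurons. In CA3 it stood at 98.6 and 74.3 CPM in the mutant libraries and at 116 and 67.0 CPM in the controls. In CA1 it was at 48.9 and 45.6 CPM in the mutants and at 50.7 and 37.1 CPM in the controls. Microglia ranked 11th of the 18 types for this gene, with 0 and 19.0 CPM in the mutants and 11.0 and 9.71 CPM in the controls, the 0 resting on 13 nuclei. Of all Lpl UMIs, 70.4% to 84.0% came from CA1, CA2 and CA3 nuclei and at most 0.471% from microglia.

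The order of the Lpl means began with CA3 at 88.9 CPM, followed by CA2 at 51.4, mossy cells (MC) at 51.0 and CA1 at 45.6, and the ranges of the last 3 over the 4 libraries overlapped. The genes most like Lpl over the same 77 sums were Lrrc20 (r = 0.768), Gm42161 (0.701), Neurod2 (0.688), Wscd2 (0.683) and Pcdh1 (0.682), each highest in CA3, CA2 or mossy cells.

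**Figure D2:**
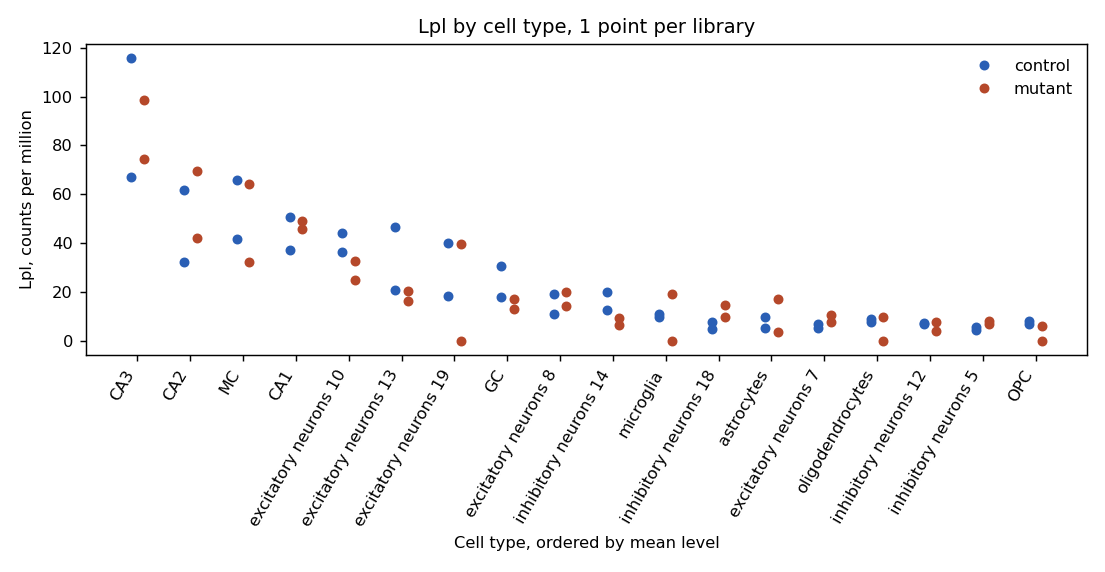
Lpl in CPM in each cell type, with 1 point for each control (blue) and mutant (red) library and types ordered by their mean. CA3 leads with 67.0 to 116 CPM, microglia lie between 0 and 19.0 CPM, and mutant and control points overlap in CA3, CA2, mossy cells and CA1.

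Cst7, a cysteine protease inhibitor and a defining gene of the reaction state, was barely detected. Microglia nuclei held 1 Cst7 UMI in all, in 1 nucleus of control replicate 2. In the mutants 0 of 13 and 0 of 332 microglia nuclei had a Cst7 UMI, which allows shares of up to 23.1% and 0.904%. For a count of 0 the limit was taken as 3 counts of the total, not as an exact interval. In control replicate 1, 0 of 105 had a Cst7 UMI, which allows up to 2.86% by the same rule. The 1 of 287 in control replicate 2 is 0.348% (exact 95% binomial interval 0.0088% to 1.93%). These limits cover counting error only. The genes most like Cst7 in profile reached r of at most 0.450 (Top1mt), followed by Gm20532, Cfap57, Gm43191 and Gm44026, so no other gene tracked its few UMIs closely.

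In bulk hippocampus the level per length, in TPM (transcript counts scaled by length and by library), ordered the genes with Lpl first and Cst7 last. Lpl was at 89.3 and 118 TPM in the mutants and 75.6 and 73.3 TPM in the controls. Csf1r followed at 38.4 to 43.1 TPM over the 4 libraries and C1qa at 37.0 to 43.8 TPM, and these ranges overlapped. P2ry12 lay between 24.5 and 31.0 TPM and Cx3cr1 between 19.4 and 23.9 TPM, without overlap.

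Tmem119 (15.5 to 18.8 TPM) and Tyrobp (16.4 to 18.5 TPM) overlapped each other, Trem2 lay between 6.16 and 11.1 TPM, and Cst7 was at 0 to 0.10 TPM.

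None of the 9 genes met the criteria for a changed gene in bulk, a fold change (FC) above 3 and a false discovery rate (FDR, the p of edgeR's quasi-likelihood test after Benjamini-Hochberg adjustment over all genes) below 0.05. Cst7, at 0 and 3 expected counts in the mutants and 2 and 3 in the controls, was removed by the filter on low counts, and the other 8 were tested. Over all 20687 genes tested, 0.198% were called lower and 0.0193% higher in the mutant. At FDR below 0.05 without a limit on fold, 1.01% were lower and 0.198% higher, and again 0 of the 8 were among them. At an unadjusted p below 0.05, 1 of the 8 was higher (Lpl) and 0 were lower, against 8.86% and 9.94% of all genes. DESeq2, which called 0.261% of all genes lower and 0.319% higher, called 0 of the 8. In bulk RNA, fewer cells of a type and less RNA per cell cannot be told apart.

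Among the genes of resting microglia, Cx3cr1 was at 37.5 and 32.9 CPM in the mutants and 38.9 and 37.7 in the controls. P2ry12 was at 26.4 and 24.6 CPM in the mutants and 28.9 and 27.3 in the controls. For both genes the 2 mutant libraries lay below the 2 control libraries, and 25.4% of all genes tested had that arrangement. The log2 fold changes were -0.12 ± 0.084 (SE) for Cx3cr1 and -0.14 ± 0.082 for P2ry12, with FDR 0.497 and 0.432 by edgeR's quasi-likelihood test.

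Tmem119 was at 19.1 and 16.1 CPM in the mutants and at 19.1 in both controls. Csf1r, at 80.5 and 75.8 CPM in the mutants and 81.0 and 74.3 in the controls, had a log2 fold change of 0.01 ± 0.063, so its groups overlapped fully.

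Of the remaining genes, C1qa was at 22.2 and 17.7 CPM in the mutants and at 18.4 and 17.5 in the controls. It is not a gene of the reaction state alone, since control microglia nuclei held it at 435 and 691 CPM. Trem2 was at 4.57 and 4.70 CPM in the mutants and at 4.93 and 6.84 in the controls, with both mutants below both controls and a log2 fold change of -0.34 ± 0.197 (edgeR FDR 0.423), which moved to -0.56 when control replicate 1 was left out and to -0.09 when control replicate 2 was. Tyrobp, the partner of Trem2, was at 4.64 and 4.02 CPM in the mutants and at 4.08 and 4.38 in the controls, which overlap.

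**Figure D3:**
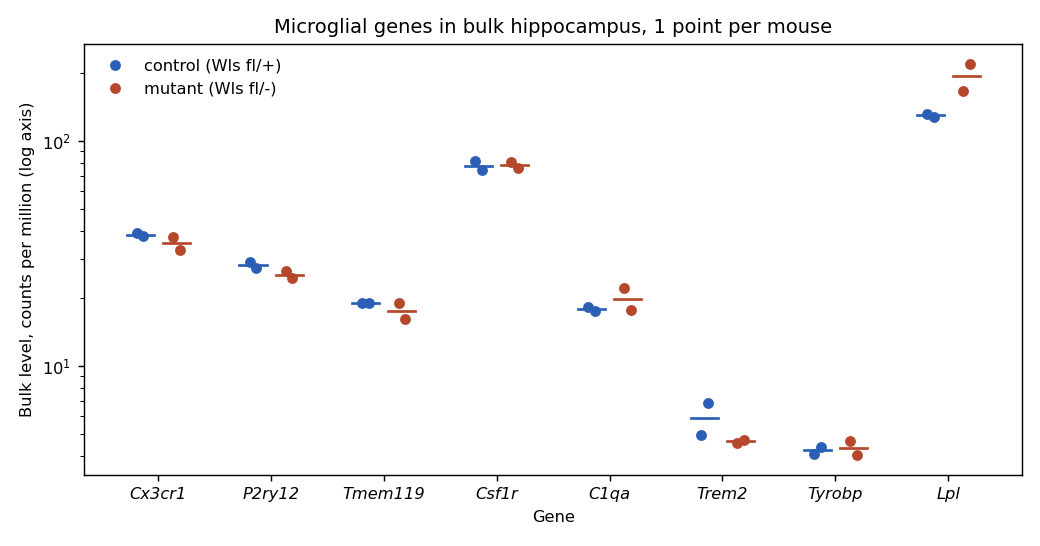
Bulk level of 8 genes in CPM on a log axis, with 1 point for each control (blue) and mutant (red) mouse and a line at the mean of each group. Lpl is the gene whose mutant points (166 and 220.4 CPM) both lie above the control points (131 and 128 CPM), while Csf1r, Tmem119, C1qa and Tyrobp overlap.

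Lpl was the gene with the largest difference of the 8. It was at 166 and 220.4 CPM in the mutants and at 131 and 128 in the controls, so both mutants lay above both controls, as for 25.8% of all genes. The log2 fold change was 0.57 ± 0.135 (SE), with an unadjusted p of 0.00706 and FDR 0.124 by edgeR's quasi-likelihood test, and 5.69% of the genes tested had a smaller p. The fold stayed below 3, and the FDR depended on the method: DESeq2 gave 0.000424 and edgeR without the filter on low counts 0.000202. It was 0.00107 without mutant replicate 1, 0.0361 without mutant replicate 2, 0.407 without control replicate 1 and 0.599 without control replicate 2 (all edgeR FDR). With the replicate number as a block, which here also separates the pair of libraries with high Xist, the log2 fold change was 0.56 (edgeR FDR 0.134).

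The choroid marker sum was higher in the same mutant libraries, and Lpl stood at 8.35 CPM in the nuclei labelled choroid plexus (CP) of mutant replicate 2, below its level in pyramidal cells. Granule cells, with 90 and 463 nuclei in the mutants and 2336 and 2007 in the controls, had less Lpl than CA3, at 16.9 and 13.1 CPM in the mutants and 30.6 and 18.0 in the controls. The part of these changes in composition in the bulk difference was not tested.

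C1qa, Tyrobp, Trem2 and Lpl were also read against the resting genes within each bulk library. The log2 level of C1qa minus the mean of Cx3cr1, P2ry12, Tmem119 and Csf1r was -0.66 and -0.83 in the mutants and -0.98 and -0.99 in the controls. That difference was 0.24 higher in the mutants on average, and the same value was 0.13 for Tyrobp, -0.23 for Trem2 and 0.65 for Lpl. An exact two-sided permutation test of 2 libraries against 2 cannot give a p below 0.333, so no p is given for these 4 values.

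Counted as nuclei, microglia were 13 of 5304 (0.245%, exact 95% binomial interval 0.131% to 0.419%) and 332 of 10460 (3.17%, 2.85% to 3.53%) in the mutant libraries. They were 105 of 6469 (1.62%, 1.33% to 1.96%) and 287 of 7192 (3.99%, 3.55% to 4.47%) in the controls. Mutant replicate 1 lay below both controls, and mutant replicate 2 lay between them. The log2 fold change of the share was -0.71 ± 1.305 (edgeR FDR 0.816). It was 0.18 without mutant replicate 1 and 0.080 without control replicate 2. The share of oligodendrocytes varied alongside, at 1.38% and 10.6% in the mutants and 3.59% and 14.3% in the controls.

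Within microglia nuclei, none of the 9 genes met the criteria of FC above 2 and FDR below 0.05 when the UMIs of each library were summed and tested with edgeR's quasi-likelihood test. The filter left 7 of the 9, without Cst7 and Lpl, and over the 7123 genes tested 0.014% were called lower and 0.0421% higher. At an unadjusted p below 0.05, 1 of the 7 was lower (C1qa) and 0 higher, against 1.88% and 1.32% of all genes, and DESeq2 called 0 of the 7. The CPM given for this test are scaled by TMM (trimmed mean of M values). Mutant replicate 1 carried 21531 microglial UMIs, so that 3 UMIs there equal 139 CPM, against 4.37 CPM in mutant replicate 2.

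Of the resting genes, Cx3cr1 was at 1967 and 1954 CPM in the mutants and 1691 and 1967 in the controls. P2ry12 was at 879 and 951 CPM in the mutants and at 794 and 882 in the controls. Tmem119 was at 335 and 502 CPM in the mutants and at 421 and 447 in the controls.

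All 3 overlapped between genotypes, with log2 fold changes of 0.09 ± 0.262, 0.15 ± 0.273 and 0.10 ± 0.289 (SE). Csf1r was at 544 and 1568 CPM in the mutants and at 1606 and 1561 in the controls. Its log2 fold change of -0.35 ± 0.277 rested on mutant replicate 1, where 13 UMIs were counted, and was -0.01 without that library and -1.44 without mutant replicate 2.

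C1qa was the member with the largest difference within microglia. It was at 251 and 414 CPM in the mutants and at 482 and 787 in the controls, so both mutants lay below both controls, an arrangement that 21.7% of the tested genes had. The 251 CPM of mutant replicate 1 rested on 6 UMIs in 13 nuclei. The log2 fold change of C1qa was -0.76 ± 0.298 (SE), with an unadjusted p of 0.0126 and FDR 1.00 by edgeR's quasi-likelihood test, and it ranged from -1.29 to -0.30 when single libraries were left out. The other chains of C1q had values of the same sign, with C1qb at 167 and 336 CPM in the mutants and 287 and 619 in the controls (log2 fold change -0.62 ± 0.313) and C1qc at -0.46 ± 0.302. In bulk the sign was the opposite for all 3 chains, at 0.15 for C1qa and 0.25 for both C1qb and C1qc, and no chain passed the test in either assay. The bulk value of C1qa was -0.02 without mutant replicate 1, and the mutant and control values of C1qa and C1qc overlapped in bulk.

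Trem2 was at 209 and 287 CPM in the mutants and at 287 and 390.2 in the controls (log2 fold change -0.34 ± 0.307, and -0.03 without control replicate 2). Tyrobp was at 83.7 and 101 CPM in the mutants and at 97.7 and 123 in the controls (-0.20 ± 0.368). Lpl had 0 and 13 UMIs in the mutants and 2 and 7 in the controls.

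**Figure D4:**
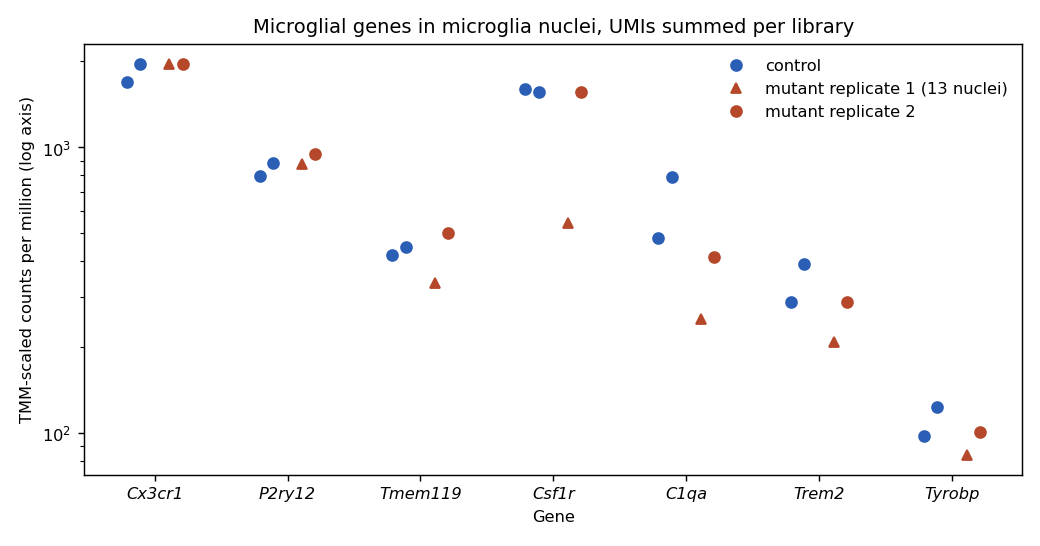
TMM-scaled CPM, on a log axis, of the 7 genes tested in microglia nuclei, with 1 point per library. The triangle is mutant replicate 1, which held 13 microglia nuclei and sits apart from the other 3 libraries for Csf1r (544 against 1561 to 1606 CPM).

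The share of microglia nuclei with at least 1 UMI gave a view per nucleus. For C1qa it was 30.8% (exact 95% binomial interval 9.09% to 61.4%) and 52.1% (46.6% to 57.6%) in the mutants. In the controls it was 49.5% (39.6% to 59.5%) and 74.2% (68.7% to 79.2%). Control replicate 2 was the high library, and it was also the deepest, with a median of 2434 UMIs per microglia nucleus against 1632 to 1958 in the others.

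With every nucleus thinned to 1000 UMIs, which left out 0 nuclei, the C1qa shares were 15.4% and 31.9% in the mutants and 35.2% and 49.1% in the controls. Both mutants then lay below both controls, whereas before thinning mutant replicate 2 (52.1%) lay above control replicate 1 (49.5%). For Trem2 the unthinned shares were 30.8% and 38.6% in the mutants and 34.3% and 54.4% in the controls, and after thinning 30.8%, 21.4%, 24.8% and 25.8%. Cx3cr1 was found in 89.5% to 100% of microglia nuclei over the 4 libraries and Csf1r in 61.5% to 91.6%. In granule cells, the background type, C1qa had UMIs in between 0.899% and 2.34% of nuclei and Csf1r in between 0.899% and 1.64%. Background was higher there for Cx3cr1 (7.11% to 18.1% of nuclei) and P2ry12 (18.6% to 37.6%).

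**Figure D5:**
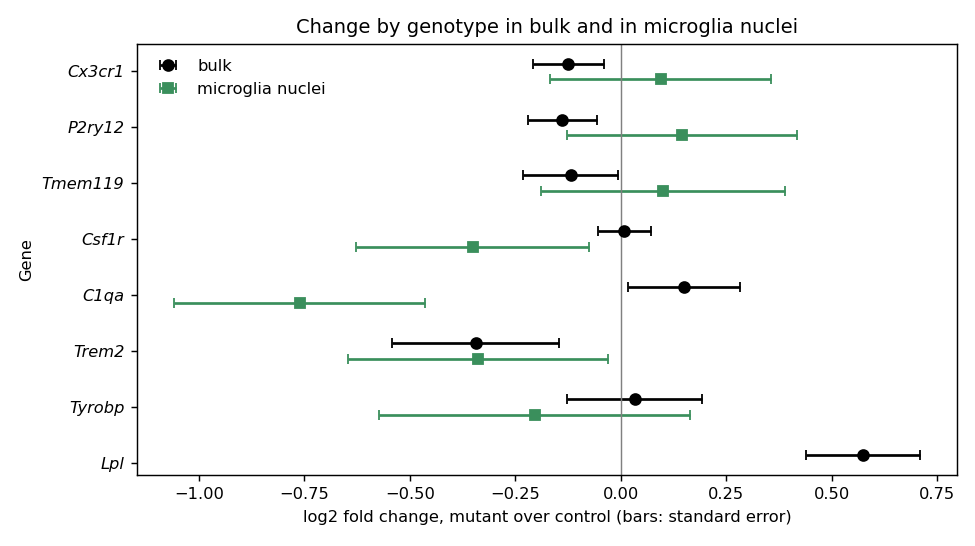
Log2 fold change of mutant over control for 8 genes in bulk (black circles) and for 7 of them in microglia nuclei (green squares), with bars of 1 standard error. C1qa lies at 0.15 in bulk and -0.76 in microglia nuclei, and Lpl, tested in bulk only, lies at 0.57.

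Of the genes called in microglia nuclei, 2 had both mutants outside the control range. Cst3, a secreted cysteine protease inhibitor abundant in resting microglia, fell from 2790.3 and 3599 CPM in the controls to 1381 and 1376 in the mutants (log2 fold change -1.22 ± 0.271, edgeR FDR 0.0430). Syt6, a synaptotagmin, rose from 24.4 and 19.0 CPM to 41.8 and 108 CPM (2.30 ± 0.502, edgeR FDR 0.0425), where 41.8 CPM in mutant replicate 1 is below the level of 3 UMIs. AY036118 and the choroid gene Ttr were also called, with overlapping groups, and DESeq2, or leaving out mutant replicate 2, gave 0 called genes in either direction. Cst3 was also not called without the 1 nucleus above 3 times the median UMI count. Ttr was at 0 and 240.3 CPM in the mutants and at 134 and 7.90 in the controls. Summed neuron markers in microglia nuclei were 1161 and 908 CPM in the mutants and 733 and 536 in the controls, and their part in these results was not tested.

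In the other 17 cell types none of the 9 genes was called at FC above 2 and FDR below 0.05 by edgeR. The share of all genes called reached 0.64% lower and 0.827% higher in granule cells, 0.253% and 0.131% in astrocytes, 0.151% and 0.439% in mossy cells, 0.121% and 0.011% in oligodendrocyte precursors, and 0.042% and 0.0315% in inhibitory neurons 12. It was 0.0892% lower in oligodendrocytes, 0.00713% lower in inhibitory neurons 5, 0.00992% higher in CA2 and 0.0482% higher in excitatory neurons 10, and 0 elsewhere. Cx3cr1 was tested in 15 of them and its log2 fold change was positive in all 15, from 0.10 to 1.39 with a median of 0.65 and a lowest FDR of 0.190 (edgeR's quasi-likelihood test). P2ry12 was positive in 12 of 14 types, with a median of 0.33 and a lowest edgeR FDR of 0.275. The types of 1 library share a mouse and its preparation, so these counts are not independent observations.

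In granule cells Cx3cr1 was at 26.3 and 28.5 CPM in the mutants and at 15.5 and 18.7 in the controls, and P2ry12 at 62.2 and 71.3 CPM in the mutants and 44.7 and 54.1 in the controls. Cx3cr1 also stood at 349.6 CPM in the choroid plexus nuclei of mutant replicate 2, where Csf1r was at 5.22, Trem2 at 1.04 and Tyrobp at 0. C1qa was tested in 3 types besides microglia, with fitted log2 fold changes from -0.53 to -0.27 and a lowest edgeR FDR of 0.635. Its groups overlapped in granule cells and inhibitory neurons 5, and in granule cells the values were 4.78 and 1.78 TMM-scaled CPM in the mutants and 2.02 and 3.22 in the controls. In CA1 both mutants (1.53 and 1.81 TMM-scaled CPM) lay below both controls (2.08 and 2.78).

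Lpl was tested in 12 types outside microglia, with 7 positive values and a range from -0.79 in granule cells to 0.66 in inhibitory neurons 5. In granule cells it was at 16.7 and 13.4 TMM-scaled CPM in the mutants and at 30.5 and 18.1 in the controls (log2 fold change -0.79 ± 0.345, edgeR FDR 0.304). Without control replicate 2 the value was -1.09 and passed, with an edgeR FDR of 0.0420. In CA3, the type with most Lpl per UMI, the log2 fold change was -0.06 ± 0.277, and in CA1 it was 0.09 ± 0.199, so neither differed by more than its error.

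Wider lists set the 9 genes in context. No gene of the lists below passed the test in bulk, where the median log2 fold change over all genes was 0.01. The homeostatic list beyond the members (20 of 20 tested) had a median of -0.03, with 1 gene higher and 1 lower at an unadjusted p below 0.05. Its lower end was Fcrls, a microglial surface receptor, at -0.51 ± 0.429.

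The list of disease-associated genes beyond the members (24 of 26 tested) had a median of 0.30, with 11 genes higher and 1 lower at an unadjusted p below 0.05 and a lowest edgeR FDR of 0.0686. Both mutants lay above both controls for 17 of the 24 (70.8%), against 25.8% of all genes. Lgals3, the lectin galectin-3, was at its upper end with 1.36 and 2.29 CPM in the mutants and 0.726 and 0.670 in the controls (1.39 ± 0.329). Itgax, an integrin of dendritic cells and reactive microglia, was at its lower end with -0.83 ± 0.758.

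Most genes of that list were not chiefly microglial in the nuclei. Of the 24, 7 were highest in microglia, with a median bulk log2 fold change of 0.33 and 2 higher at an unadjusted p below 0.05, and 17 were highest in another type, with a median of 0.27 and 9 higher. In the choroid plexus nuclei of mutant replicate 2, 2 of the 24 (Ctsd at 3.13 CPM and Lgals3 at 7.30 CPM) exceeded their mean in all 18 types. Several placements rest on low levels. Ctsd (2.85 CPM), Itgax (2.835 CPM) and Ccl6 (4.93 CPM) were among those highest in microglia, and Lgals3 was highest in cluster 19 at 5.26 CPM. Ctsd was at 231 to 380 CPM in bulk, so the nuclei do not locate its bulk level. Examples chosen after their values were seen are Apoe, highest in astrocytes at 3731 CPM, Serpine2, highest in oligodendrocyte precursors at 619.5 CPM, and Spp1, highest in cluster 19 at 135 CPM. In microglia nuclei 11 genes of the list were tested, with a median of -0.20 against -0.04 over all genes. Timp2 (0.36 ± 0.405) and Apoe (-1.50 ± 0.368, edgeR FDR 0.114) were its ends. The homeostatic list beyond the members (17 tested) had a median of -0.23 in the same nuclei, so the lower median was not particular to disease-associated genes. Apoe, a lipid carrier, was at 83.7 and 91.2 CPM in the mutant microglia and at 171 and 313 in the control microglia. The 83.7 CPM in mutant replicate 1 is below the level of 3 UMIs.

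Complement genes had a median of 0.24 in bulk (8 of 8 tested) and -0.50 in microglia nuclei (5 tested), and 0 passed in either. Partners of Trem2 and Tyrobp in signalling had a median of -0.04 in bulk (7 of 10 tested), between Btk at 0.29 ± 0.334 and Plcg2, the phospholipase downstream of Trem2, at -0.62 ± 0.141 (edgeR FDR 0.118). In microglia nuclei Plcg2 was at the upper end of the same list, at 0.25 ± 0.286.

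Ligands that keep or attract microglia (6 of 9 tested in bulk) had a median of 0.02, between the chemokine Cxcl10 at 0.71 ± 1.11 and Csf1 at -0.34 ± 0.153. The 5 inflammatory cytokines and enzymes tested had 0 positive values, a median of -0.39 and ends at Il18 (-0.09) and Nos2 (-0.71). Interferon response genes (10 tested) had a median of 0.11, with Bst2 at 1.41 ± 0.443 and Isg15 at -0.44 ± 0.330. Antigen presentation genes (7 tested) had a median of 0.34, with H2-Ab1 at 0.61 ± 0.311 and Ciita at -0.33 ± 0.270. The 6 proliferation genes had a median of -0.13, from Mki67 at -1.18 ± 0.285 to Cdk1 at 0.54 ± 0.797. Of the 8 border macrophage markers, 1 was positive, and the median was -0.61, from Pf4 at -0.91 to Ms4a7 at 0.22.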

How the data were processed

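Bulk RNAseq and snRNAseq each covered 2 mutant and 2 control hippocampal samples. Per the submitters' processing notes and the study's methods, the authors aligned bulk reads to mm10 with RSEM 1.3.0 and Bowtie2 2.2.9 and deposited expected counts and TPM per gene, and a normalized signal matrix whose method is not given in the sources used here. They aligned nuclear reads to a pre-mRNA index with Cell Ranger 3.1.0 and deposited UMI counts per nucleus with cell types and a size factor, a ratio per nucleus. Every deposited microglia nucleus had at least 1501 UMIs. Doublet removal is not given in the sources used here, and no doublet caller was run. Nuclei above 3 times the median UMI count were left out as an alternative.

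Expected counts were rounded to whole numbers, filtered with filterByExpr, scaled by TMM and tested with edgeR 4.0.16 (quasi-likelihood, Benjamini-Hochberg over all genes tested). UMI counts were summed per library and cell type (at least 10 nuclei in every library) and tested the same way. Called genes had FDR below 0.05 and FC above 3 (bulk) or 2 (nuclei). Levels across types are plain CPM. The script was tested on simulated data. DESeq2 1.42.0, limma 3.58.1 on log2(value + 1) of the deposited matrix, RLE size factors, no filter, thresholds, replicate block and left-out libraries were alternatives. The 9 genes and all lists were chosen with earlier results of these data known. Named genes were the 9, both ends of each list where none passed, the called microglial genes outside the control range, and the 5 most like in profile. One marker of the label check and the upper end of the homeostatic list in bulk are not reported here. Gene positions are from GENCODE vM21 (GRCm38). P-values and standard errors rest on 2 mice per genotype and on dispersions that edgeR pools over genes. They therefore do not measure the spread of a gene between its own mice alone. In microglia nuclei Csf1r, at 544 and 1568 CPM in the mutants, had an SE of 0.277. P2ry12, at 879 and 951 CPM, had 0.273.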

Additional observations from a re-analysis of the deposited data

Results flagged for a closer look

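The fitted log2 fold change of Lpl by genotype differed in sign between neuron types. Of the 12 types tested outside microglia, 2 had both mutants above both controls and 2 had both mutants below. The share of all genes with these arrangements in these types was not computed, so the counts are not read as a result about Lpl. In microglia nuclei 12.4% of all genes tested had the first arrangement and 21.7% the second. In excitatory neurons 7 and inhibitory neurons 5 both mutant libraries lay above both controls, with log2 fold changes of 0.62 and 0.66. In excitatory neurons 10 and granule cells both mutants lay below both controls, with log2 fold changes of -0.47 and -0.79. The log2 fold change was higher by 1.10 in excitatory neurons 7 and by 1.13 in inhibitory neurons 5 than in excitatory neurons 10, and by 1.41 and 1.45 than in granule cells. These 4 differences between types were not tested, and in the fits of all 4 libraries (edgeR) no single type passed FDR 0.05. The edgeR FDR was 0.909 in excitatory neurons 7, 0.523 in inhibitory neurons 5, 0.677 in excitatory neurons 10 and 0.304 in granule cells.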

How the results depend on the processing

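With mutant and control libraries sharing replicate numbers 1 and 2, pairing was checked by the correlation of same-numbered deviations, r = 0.016 in bulk and 0.039 in microglia nuclei, so the numbers were not taken as pairs, although the same-numbered bulk libraries were alike in Xist. Under the replicate block bulk calls were 24 lower and 2 higher, 0 genes were lower in microglia nuclei, and the log2 fold change of Lpl in astrocytes reversed to 0.068, with 0 of the 9 genes called in any type.

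In bulk 0 of the 9 genes were called under any of the 11 alternatives, while calls over all genes moved to 66 higher with DESeq2, 112 lower and 201 higher without the filter, 209 lower and 41 higher at FDR 0.05 with any fold, and 76 lower at FC above 2. With single libraries left out they ranged from 0 to 147 lower and from 0 to 248 higher, and the log2 fold change of Csf1r ranged from -0.054 to 0.071, of C1qa from -0.021 to 0.30, of Trem2 from -0.56 to -0.088 and of Tyrobp from -0.072 to 0.13. In microglia nuclei 0 of the 9 were called throughout. Calls there were 3 lower and 5 higher with RLE size factors, 0 and 0 with DESeq2, 0 lower without nuclei of high UMI count, and 0 to 7 lower and 0 to 7 higher with libraries left out. Cx3cr1 then ranged from -0.052 to 0.28, Tmem119 from -0.29 to 0.20, Csf1r from -1.44 to -0.015, Trem2 from -0.64 to -0.032 and Tyrobp from -0.36 to 0.07. The share of microglia ranged from -3.51 to 0.18. In the left-out runs Lpl ranged from -0.93 to 1.28 in astrocytes, -0.15 to 0.35 in CA1, -0.18 to 0.77 in CA2, -0.44 to 0.39 in CA3, -0.14 to 0.67 in excitatory neurons 8 and -0.68 to 0.45 in mossy cells, and in granule cells from 0 to 1 of the 9 genes was called. A genotype left with 1 library was assumed to vary like the other. The causes were not tested. Thinning to 1000 UMIs lowered the shares of nuclei (P2ry12 in the controls from 75.2% and 77.7% to 55.2% and 52.6%). It moved the mutant minus control difference of Trem2 from -9.66 to 0.80 percentage points, which reversed its sign. The Trem2 difference and the other differences between genotypes moved by less than 1 SD between replicates under thinning. So did the microglia to next type ratios with the authors' size factors and the differences within bulk libraries under the other references. Without clusters 14 and 19, an alternative chosen after seeing the data, the ratio of microglia to the next type was 57.9 for Cx3cr1, 91.6 for Tmem119, 182 for Csf1r, 91.2 for C1qa, 144 for Trem2 and 36.4 for Tyrobp.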
